A study of Homo sapiens with 6 samples.

Results

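Interferon-stimulated genes are the genes that cells switch on in answer to interferons, and 42 of them, named by symbol, were followed here through 6 RNA sequencing libraries. All 42 are rows of a table of 19912 gene rows. The libraries came from cells labelled as gemcitabine-resistant Panc-1, a line from a human pancreatic ductal carcinoma. Of these, 3 carry the label of SRSF3 knockdown, with the treatment shSRSF3, which names a short hairpin RNA against the splicing factor SRSF3, and 3 are labelled as controls. Both groups share the resistant phenotype. The labels do not say whether the lines are clones, which hairpin the controls carried, whether gemcitabine was present, or whether the replicates were separate cultures. The p-values therefore measure the spread between these libraries, which may be technical. Values are FPKM, fragments divided by gene length and library total, so levels can be compared between genes.

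Interferons bind receptors whose kinases activate STAT factors. STAT2 and IRF9 are parts of the complex ISGF3, which binds a short DNA element, the interferon-stimulated response element, in front of its target genes. Sensors of viral RNA such as RIG-I (DDX58) and MDA5 (IFIH1) act upstream and switch on IRF3 and IRF7, which induce interferon. IRF3 can also induce a subset of these genes, ISG15, IFIT1 and IFIT2 among them, without interferon. The products block viral entry, degrade or bind viral RNA, or attach the ubiquitin-like protein ISG15 to other proteins. In carcinoma cells part of this set is often expressed without infection.

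The knockdown label was checked on SRSF3 itself. SRSF3 stood at 36.9, 37.1 and 38.6 FPKM in the knockdown-labelled libraries, against 37.0, 39.6 and 39.2 FPKM in controls. The groups overlapped, and the change was -2.65% (95% interval from -9.68% to 4.92%, limma adjusted p = 0.612, exact two-sided permutation p = 0.3 where 0.1 is the smallest possible). No fall of SRSF3 RNA was thus detected, and every direction given here is that of libraries carrying the label. The epithelial keratin genes KRT8 and KRT18 were at 1345 FPKM or more in every library, while VIM, which PANC-1 cells are known to express, stood at no more than 0.0389 FPKM, and KRT7 at no more than 0.241 FPKM. Of 13 leukocyte markers, 7 were listed at 0 in every library, and PTPRC, the pan-leukocyte gene, was among them. The total of these markers was 2.93 to 3.20 FPKM in knockdown-labelled libraries and 2.55 to 3.13 FPKM in controls, most of it from CD14. Of 10 fibroblast and endothelial markers, COL1A2 and PDGFRA were listed at 0 in every library. The 10 summed to 2.08 to 2.35 FPKM under the knockdown label and 1.73 to 2.21 FPKM in controls. Most of this sum came from CLDN5, which alone of the 10 was abundant enough to test and did not pass.

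The interferon-stimulated genes split in the knockdown-labelled libraries. ISG15, OASL, IFIT1, IFIT2 and IFIT3 were higher by 17.4% to 26.9%, and IFITM1 and OAS3 were lower by 14.5% and 10.2%. Of the 42 genes, 37 had a mean of at least 0.5 FPKM over the 6 libraries and were tested with limma within the whole table. Of these 37, 5 rose and 2 fell at an adjusted p below 0.05, which is 18.9%, beside 16.8% of all 10823 genes tested (10.9% higher and 5.91% lower). The share among interferon-stimulated genes was thus near that of the whole table. Without control library 1, 2 or 3, 2 of the set passed in each case, and without knockdown library 1, 2 or 3, 8 did. The count over the whole table was 1082, 647 and 651 without control library 1, 2 or 3, and 1640, 844 and 2742 without knockdown library 1, 2 or 3, against 1819 with all. The median log2 change was 0.01 over the 37 genes and 0.02 over all genes tested, and 20 of the 37 had positive and 17 negative values. Groups did not overlap for 13 of the 37 genes (35.1%), beside 37.9% of all genes tested. Of the 37 genes, 9 had all 3 knockdown-labelled libraries higher, beside 22.6% of all genes tested. All 3 were lower for 4 of the 37, beside 15.3% of all genes tested.

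**Figure D1:**
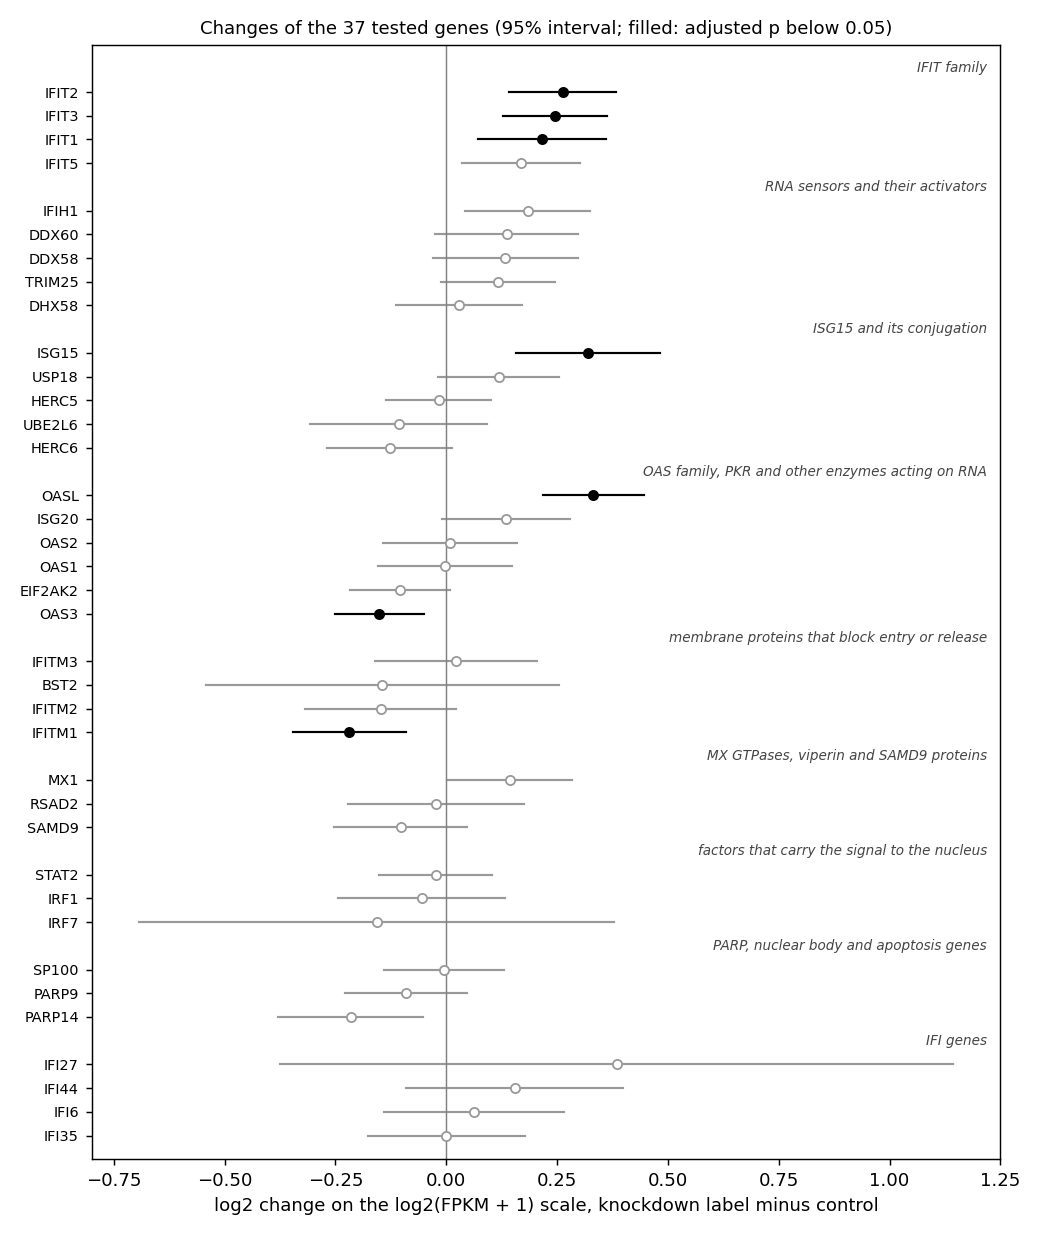
Log2 change of each of the 37 tested interferon-stimulated genes on the log2(FPKM + 1) scale, knockdown label minus control, with its 95% interval (limma, 3 libraries per group), ordered by role. Filled points have an adjusted p below 0.05; ISG15, OASL and the IFIT genes lie to the right of 0, and OAS3 and IFITM1 to the left.

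Other gene lists were set beside these changes. Immediate early genes, which respond to handling, had 5 of 9 tested members higher and 0 lower, beside 10.9% higher and 5.91% lower over the table, and their total was 236 to 241 FPKM in knockdown-labelled libraries and 188 to 200.3 FPKM in controls. Mitochondrial mRNAs had 2 of 13 higher and 0 lower, a share near that of the table. Their median log2 change was 0.36, however, beside 0.02 over all genes tested. MT-ND2, one of the 2 called, stood at 6028, 4595 and 4179 FPKM in knockdown libraries 1 to 3, against 3388 to 3702 FPKM in controls. MT-ND3 had a log2 change of -0.0002 (limma adjusted p = 0.999). Differences between replicate libraries, as a mean chi-square per gene where counting noise gives 1, were 11.2 to 33.3 among knockdown-labelled libraries and 3.31 to 6.95 among controls. Genes with many fragments weigh most in this mean. The median coefficient of variation over all genes tested was 6.93% under the knockdown label and 4.66% in controls. The split of all calls was 1179 higher and 640 lower, against 956 and 810 with median scaling and 817 and 808 with quantile normalization. The part of these in the changes of interferon-stimulated genes was not tested.

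Levels spanned a wide range. ISG15 was the most abundant, at a mean of 589 FPKM over the 6 libraries, ahead of IFITM3 at 241 FPKM, IFI6 at 92.1 FPKM and IFITM2 at 91.1 FPKM. IFI6 and IFITM2 did not differ beyond their spread. In all, 13 genes had a mean of at least 10 FPKM, 21 lay between 1 and 10 FPKM, and 8 lay below 1 FPKM. All 42 rows followed the steps that whole fragments leave. The fragment numbers given are those for the shortest gene length that fits, and whole multiples of them fit as well. ISG15 rested on 12284 to 17273 fragments per library and OAS3 on 7182 to 8505. At the low end BST2 rested on 9 to 39 fragments and DHX58 on 52 to 66.

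The summed level of the 42 genes was 1461, 1354 and 1299 FPKM in knockdown-labelled libraries 1 to 3, against 1235, 1239 and 1207 FPKM in control libraries 1 to 3. The groups did not overlap in this sum. They did not overlap in the sum over all mRNA rows either. That sum was 336887, 308101 and 287148 FPKM in knockdown-labelled libraries 1 to 3, against 285701, 284236 and 275359 FPKM in control libraries 1 to 3. ISG15 alone made up 46.7% to 49.0% of the sum of the 42 genes under the knockdown label and 42.2% to 43.0% in controls. Without ISG15 the sums were 745, 721 and 683 FPKM in knockdown-labelled libraries and 704, 709 and 698 FPKM in controls, and the groups overlapped. In bulk RNA, more RNA per cell and more cells that express a gene cannot be told apart.

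**Figure D2:**
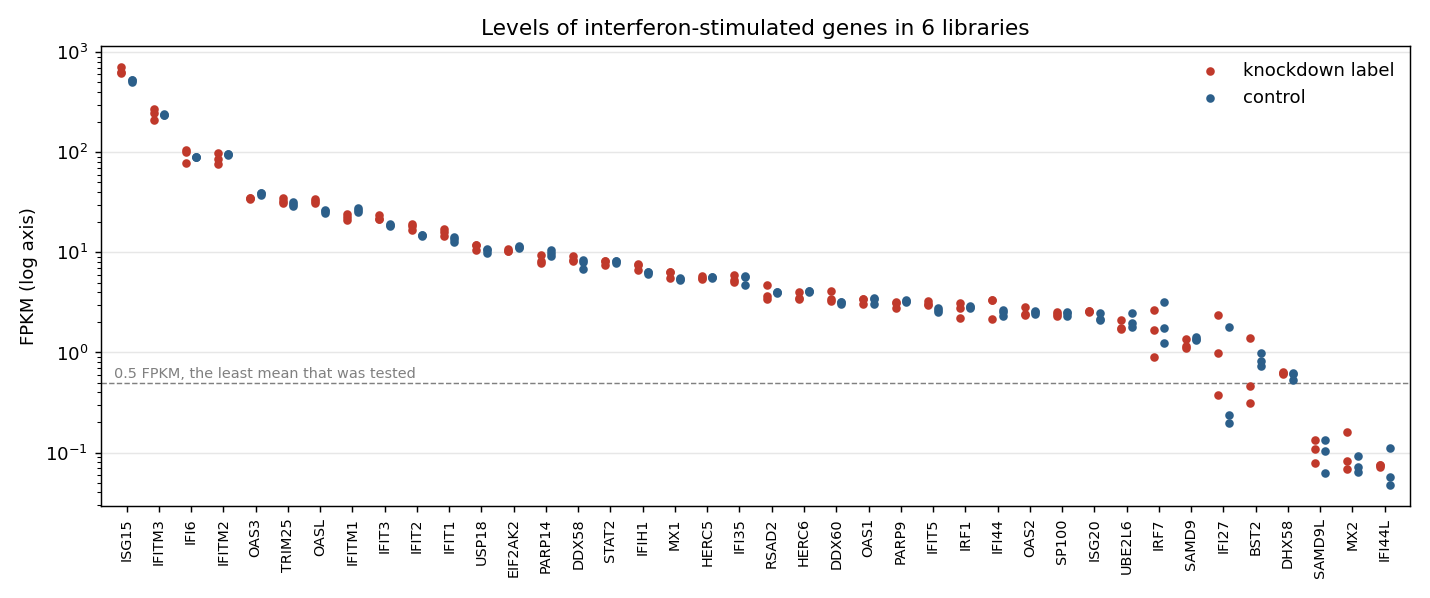
FPKM on a log axis in each library for the 40 interferon-stimulated genes above 0 in all 6 libraries, ordered by mean (knockdown label left, control right; points are libraries; XAF1 and IRF9, listed at 0 in some libraries, are left out). ISG15, with a mean of 589 FPKM, stands above the rest, and IFI27, IRF7 and BST2 spread widely inside their groups.

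ISG15, the ubiquitin-like protein that is attached to newly made proteins, stood at 716, 633 and 617 FPKM in knockdown-labelled libraries 1 to 3, against 531, 530 and 509 FPKM in controls. Every knockdown-labelled library was above every control. The mean was 25.2% higher (log2 0.32, SE 0.07, limma adjusted p = 0.0167). The genes that attach or remove ISG15 did not pass the test. USP18, the protease that removes ISG15 and also restrains the interferon receptor, had 11.8, 11.9 and 10.6 FPKM under the knockdown label, against 10.6, 9.85 and 10.9 FPKM in controls (limma adjusted p = 0.206). Its near-identical copy USP41 has a row of its own, so reads may have been split. HERC5, the ligase for ISG15 in human cells, had 5.50, 5.44 and 5.78 FPKM, against 5.74, 5.66 and 5.55 FPKM in controls (adjusted p = 0.855). HERC6, a relative of HERC5, and UBE2L6, the conjugating enzyme, had log2 values of -0.13 and -0.11 (limma adjusted p = 0.192 and 0.434). The ISG15 call was lost with no filter on low genes (adjusted p = 0.106) and without control library 1 (0.0576), 2 (0.0736) or 3 (0.0864), while its log2 change stayed between 0.22 and 0.36. Without knockdown library 3, HERC6 passed, at log2 -0.18 (adjusted p = 0.046).

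Of the 4 IFIT family members 3 rose, beside 10.9% of all genes tested. The protein IFIT1 binds viral RNA that lacks the cap marks of the cell's own RNA. IFIT1 stood at 16.1, 14.8 and 17.03 FPKM in knockdown-labelled libraries, against 12.7, 13.8 and 14.4 FPKM in controls. IFIT2 stood at 18.3, 16.9 and 19.02 FPKM, against 14.9, 15.1 and 14.7 FPKM in controls. IFIT3, which stabilizes IFIT1 on RNA, stood at 23.7, 21.7 and 21.6 FPKM, against 18.2, 18.6 and 19.2 FPKM in controls. In each of these the knockdown-labelled libraries lay above all controls, and the gap between the groups was narrowest for IFIT1. The log2 changes were 0.22 (SE 0.07), 0.26 (SE 0.05) and 0.24 (SE 0.05) for IFIT1, IFIT2 and IFIT3, with limma adjusted p = 0.0457, 0.0113 and 0.0133. IFIT5 had 2.99, 3.28 and 3.06 FPKM, against 2.77, 2.66 and 2.54 FPKM in controls, with groups that did not overlap, but its change of 0.17 (log2) did not pass (adjusted p = 0.0802).

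Calls within the IFIT family depended on the controls used. Without control library 1, IFIT1 and IFIT3 were lost (adjusted p = 0.148 and 0.0534), without control library 2 the same genes (0.118 and 0.0635), and without control library 3 IFIT1 and IFIT2 (0.0705 and 0.0524). IFIT1 was also lost without knockdown library 1 (0.0778) or 3 (0.0801), with median scaling (0.0711) and with quantile normalization (0.164), and with no filter IFIT1, IFIT2 and IFIT3 had an adjusted p = 0.198, 0.0708 and 0.0713. In RefSeq the spans of the 4 IFIT genes overlap that of LIPA, so reads in shared stretches may have been assigned to either.

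Of the 4 OAS genes, a family whose active enzymes make the second messenger that activates RNase L, OASL rose, OAS3 fell, and OAS1 and OAS2 did not pass the test. OASL, which has no such activity and enhances RIG-I signalling, stood at 32.3, 33.9 and 31.4 FPKM under the knockdown label, against 24.6, 26.6 and 25.8 FPKM in controls. This was the smallest p of the set (26.9% higher, log2 0.33, SE 0.05, limma adjusted p = 0.00316), and OASL alone kept its call under all 14 alternatives. OAS3, the member that acts at low levels of double-stranded RNA, stood at 34.8, 34.95 and 33.9 FPKM, against 38.9, 38.9 and 37.7 FPKM in controls. All 3 knockdown-labelled libraries were below all controls (10.2% lower, log2 -0.15, SE 0.05, limma adjusted p = 0.0448). The OAS3 call was lost without knockdown library 2 (adjusted p = 0.0966) or 3 (0.0511), or without control library 1 (0.126), 2 (0.184) or 3 (0.111).

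OAS1 had 3.43, 3.46 and 3.05 FPKM under the knockdown label, against 3.42, 3.03 and 3.51 FPKM in controls, and OAS2 had 2.84, 2.42 and 2.36 FPKM, against 2.57, 2.44 and 2.52 FPKM. Both overlapped (limma adjusted p = 0.987 and 0.943), with log2 intervals from -0.15 to 0.15 and from -0.14 to 0.16. EIF2AK2, the kinase PKR that halts translation on double-stranded RNA, had 10.4, 10.2 and 10.9 FPKM, against 11.1, 11.4 and 11.6 FPKM in controls. Its groups did not overlap, but its change did not pass (log2 -0.10, adjusted p = 0.179). ISG20, an RNA exonuclease, had groups that did not overlap either, at 2.58, 2.57 and 2.53 FPKM, against 2.15, 2.49 and 2.10 FPKM in controls (adjusted p = 0.178).

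**Figure D3:**
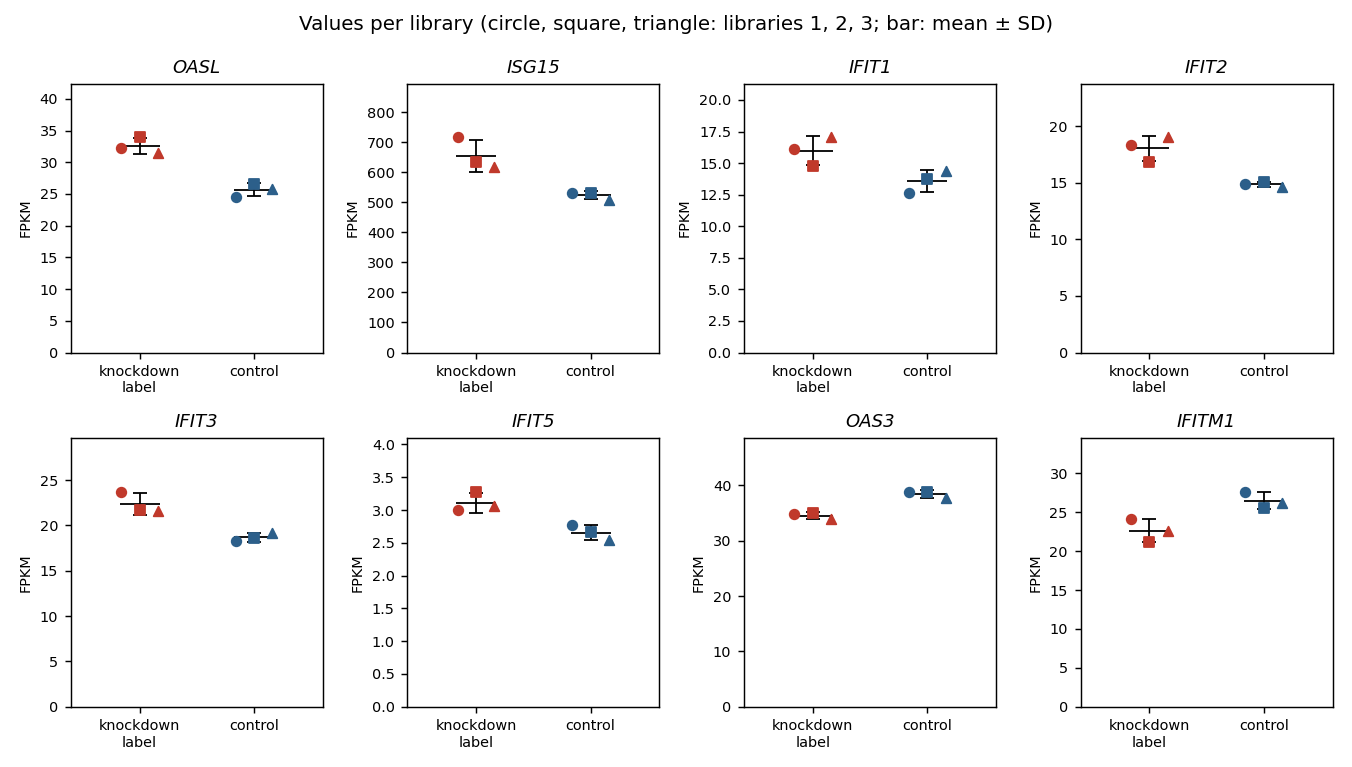
FPKM in each library for 8 genes, with the mean and SD of 3 libraries (knockdown label left, control right). OASL, ISG15 and the 4 IFIT genes lie higher in every knockdown-labelled library than in any control, and OAS3 and IFITM1 lie lower, with IFIT5 not past the test.

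The response element was looked for in front of these genes. Promoter windows of 250 bases before to 50 after the gene start, from RefSeq (GRCh38.p14), were at hand for 34 of the 42 genes. The core searched was GAAANNGAAA on either strand, with overlapping matches counted. It was present for 22 of the 34 (64.7%), beside 4.23% of 14812 genes of the table with a window and 3.57% of all 35116 windows. This share describes the genome sequence of a set chosen as interferon-stimulated, and no library enters it. Among genes that passed the test the core was present for 5 of 5 with a window (ISG15, IFIT1 and IFIT3, which rose, and OAS3 and IFITM1, which fell). OASL and IFIT2, which also rose, had no window. Among tested genes that did not pass, it was present for 16 of 25. The 160 bases before the start are given for 4 of the genes that changed and for IFITM3, which did not pass, because rises, a fall and an uncalled gene share the same core. Sequences run 5′ to 3′ on the gene's strand, and capitals mark the core.
ISG15 (chr1:1013337-1013496, + strand): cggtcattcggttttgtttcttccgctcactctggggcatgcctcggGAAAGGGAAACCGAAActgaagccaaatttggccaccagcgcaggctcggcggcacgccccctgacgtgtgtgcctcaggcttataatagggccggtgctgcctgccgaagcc
IFIT1 (chr10:89392463-89392622, + strand): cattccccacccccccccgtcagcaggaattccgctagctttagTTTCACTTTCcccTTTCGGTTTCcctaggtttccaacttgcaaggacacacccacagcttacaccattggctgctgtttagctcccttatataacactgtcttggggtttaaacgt
IFIT3 (chr10:89327837-89327996, + strand): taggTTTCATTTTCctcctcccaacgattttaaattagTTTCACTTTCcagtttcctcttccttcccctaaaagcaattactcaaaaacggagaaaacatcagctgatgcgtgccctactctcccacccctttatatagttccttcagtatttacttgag
OAS3 (chr12:112938314-112938473, + strand): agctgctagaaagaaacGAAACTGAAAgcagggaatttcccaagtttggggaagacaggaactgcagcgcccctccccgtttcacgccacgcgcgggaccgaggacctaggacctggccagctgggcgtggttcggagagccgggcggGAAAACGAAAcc
IFITM3 (chr11:320861-321020, - strand): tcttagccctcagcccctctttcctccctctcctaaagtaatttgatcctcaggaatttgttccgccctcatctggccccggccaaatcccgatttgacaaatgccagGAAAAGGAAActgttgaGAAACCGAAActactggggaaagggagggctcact
Each of the 5 stretches holds 2 cores. In ISG15 these overlap and start 113 and 107 bases before the gene start. In IFIT1 they start 116 and 103 bases before it and in IFIT3 156 and 122, on the opposite strand in both. In OAS3 they start 143 and 12 bases before the start, and in IFITM3 52 and 35. A match describes letters and is no evidence of binding.

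Of the 5 genes for sensors of viral RNA and their activators, 0 passed the test. All 5 had positive log2 values, from 0.03 to 0.18, and the interval of the lowest, DHX58, ran from -0.11 to 0.17. Calls over all genes tested leaned the same way, with 10.9% higher and 5.91% lower. The median log2 change was 0.02 over all genes tested and 0.05 in those averaging 5 FPKM or more. A shift of these 5 genes beyond that lean was not tested. IFIH1 (MDA5) had 7.48, 6.62 and 7.74 FPKM under the knockdown label, against 6.44, 6.05 and 6.36 FPKM in controls, with groups that did not overlap (log2 0.18, limma adjusted p = 0.073). Without knockdown library 2, IFIH1 passed, at log2 0.24 (adjusted p = 0.046). DDX58 (RIG-I) had 8.38, 8.15 and 9.21 FPKM, against 6.88, 8.03 and 8.34 FPKM in controls, and the groups overlapped (adjusted p = 0.229). DDX60, a helicase that promotes RIG-I signalling, had 3.41, 3.27 and 4.08 FPKM, against 3.08, 3.23 and 3.17 FPKM, without overlap (adjusted p = 0.214). TRIM25, the ligase long tied to RIG-I activation, was among the most abundant, at 32.5, 35.2 and 31.3 FPKM, against 31.9, 30.2 and 28.95 FPKM in controls (adjusted p = 0.192). DHX58 (LGP2) lay at 0.640, 0.616 and 0.610 FPKM, against 0.615, 0.529 and 0.628 FPKM in controls (adjusted p = 0.786).

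Of the factors that carry the signal to the nucleus, 0 of 3 tested passed, beside 16.8% of all genes tested. STAT2 had 8.17, 8.19 and 7.41 FPKM under the knockdown label, against 8.25, 8.20 and 7.76 FPKM in controls (limma adjusted p = 0.802, log2 interval from -0.15 to 0.10). IRF1 had 3.10, 2.81 and 2.23 FPKM, against 2.87, 2.90 and 2.76 FPKM (adjusted p = 0.68). IRF9, the DNA-binding part of ISGF3, held 1, 0 and 0 fragments in knockdown-labelled libraries and 1, 0 and 1 in controls, so it was not tested. A count of 0 or 1 says that almost no fragment was assigned to IRF9, and its part in the levels of its targets was not tested.

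Of the membrane proteins that block viral entry, IFITM1 fell, and IFITM2 and IFITM3 did not pass the test. A difference between these genes was not tested. IFITM1, which acts mainly at the cell surface, stood at 24.1, 21.2 and 22.6 FPKM under the knockdown label, against 27.6, 25.6 and 26.2 FPKM in controls. All 3 knockdown-labelled libraries were lower than any control (14.5% lower, log2 -0.22, SE 0.06, limma adjusted p = 0.0283). IFITM2 and IFITM3, which act in endosomes, are near-identical in sequence, and reads may have been split between them. IFITM3 had 273, 245 and 212 FPKM, against 237, 244 and 235 FPKM in controls, and IFITM2 had 97.8, 85.5 and 76.6 FPKM, against 96.8, 95.6 and 94.5 FPKM (adjusted p = 0.876 and 0.206). For both genes the knockdown-labelled libraries lay on either side of the controls, with number 1 highest and number 3 lowest.

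The IFITM1 call was lost with no filter (adjusted p = 0.129), with limma voom on fragment numbers (0.0523), without knockdown library 2 (0.103) and without control library 1 (0.0994), 2 (0.0707) or 3 (0.0875). IFITM2 passed with quantile normalization (log2 -0.27, adjusted p = 0.0155) and without knockdown library 1 (log2 -0.24, adjusted p = 0.0189). BST2 (tetherin), which holds budding virus at the membrane, held 9, 39 and 14 fragments under the knockdown label, against 20, 28 and 25 in controls (adjusted p = 0.607). Without knockdown library 2 its log2 change was -0.41 (adjusted p = 0.028).

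Among the MX, viperin, SAMD9, PARP and nuclear body genes 0 of 6 tested passed, beside 16.8% of all genes tested. MX1, a GTPase that traps viral nucleoprotein, had 6.40, 6.34 and 5.53 FPKM under the knockdown label, against 5.57, 5.25 and 5.41 FPKM in controls (limma adjusted p = 0.146). It passed without knockdown library 3 (log2 0.20, adjusted p = 0.0288). PARP14, a mono-ADP-ribosyltransferase, had 7.76, 8.12 and 9.35 FPKM, against 9.16, 9.97 and 10.6 FPKM, and a single knockdown-labelled library, number 3, reached into the controls (log2 -0.22, adjusted p = 0.0707). It passed without that library (log2 -0.29, adjusted p = 0.0138), with voom (0.041) and at a mean of at least 5 FPKM (0.0455). PARP9 had groups without overlap, at 2.78, 3.13 and 3.16 FPKM, against 3.21, 3.34 and 3.28 FPKM in controls (adjusted p = 0.332). SP100, a nuclear body protein, SAMD9 and RSAD2 (viperin) had log2 values of -0.01, -0.10 and -0.02 (adjusted p = 0.963, 0.317 and 0.88). In RefSeq, RSAD2 overlaps CMPK2, EIF2AK2 overlaps GPATCH11 and PARP9 overlaps DTX3L, so reads there may have been shared.

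The genes named for their interferon inducibility alone also gave 0 calls of 4 tested, beside 16.8% of all genes tested. IFI6, a mitochondrial and endoplasmic reticulum protein, had 78.3, 100.04 and 104.9 FPKM under the knockdown label, against 90.8, 88.9 and 89.5 FPKM in controls. Knockdown library 1 lay below all controls and the other two lay above them. Without that library the log2 change of IFI6 was 0.19 (adjusted p = 0.0239), against 0.06 with it (0.67). IFI35 was level, at log2 0.0003 (adjusted p = 0.998). IFI44 had 3.31, 2.17 and 3.31 FPKM, against 2.54, 2.30 and 2.66 FPKM (adjusted p = 0.357), and without knockdown library 2 its log2 change was 0.30 (adjusted p = 0.0386). IFI44L, MX2, SAMD9L and XAF1 lay below the filter, with at most 57 fragments in any library, and were not tested.

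Spread inside the groups was uneven. The median coefficient of variation over the 37 genes was 8.01% in knockdown-labelled libraries and 3.46% in controls, beside 6.93% and 4.66% over all genes tested. The widest, chosen after their values were seen, were IFI27, IRF7 and BST2. IFI27, a mitochondrial protein, stood at 2.36, 0.988 and 0.380 FPKM under the knockdown label, against 1.80, 0.198 and 0.238 FPKM in controls, so library 1 stood far above the other two of its group in both (251, 102 and 43 fragments, against 183, 21 and 27; limma adjusted p = 0.464). IRF7, the factor that amplifies interferon production, stood at 1.69, 2.66 and 0.906 FPKM, against 1.77, 3.20 and 1.24 FPKM in controls (adjusted p = 0.685). Library 1 was highest for IFI27 and library 2 for IRF7 in both groups. RSAD2 was spread widely in the knockdown-labelled libraries only by number 3, at 4.74 FPKM, against 3.63 and 3.43 FPKM in the other two and 3.91 to 4.06 FPKM in controls.

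**Figure D4:**
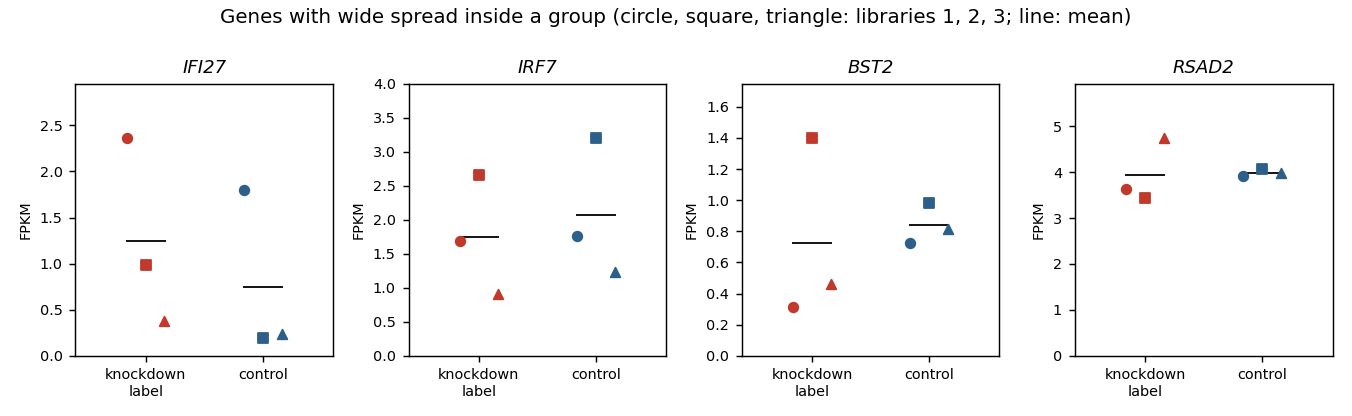
FPKM in each library for 4 interferon-stimulated genes with wide spread inside a group (knockdown label left, control right; lines are means of 3 libraries). The groups overlap in every panel, and for IFI27 library 1 stands highest in both groups, at 2.36 and 1.80 FPKM.

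The rest of the pathway was taken from 5 lists, with 79 tested genes that are not in the set. Of these 3 rose and 7 fell, which is 12.7%, beside 16.8% over the table. Among 10 interferon genes the alpha, omega and gamma genes held 0 or 1 fragment in any library, IFNE held 2 to 9, and the lambda genes were expressed. IFNL1 stood at 7.06, 6.98 and 7.10 FPKM under the knockdown label, against 6.08, 7.40 and 5.84 FPKM in controls (limma adjusted p = 0.298). IFNL3 fell, to 2.33, 1.67 and 2.09 FPKM, against 2.80, 2.89 and 2.80 FPKM in controls (28.3% lower, log2 -0.34, SE 0.08, adjusted p = 0.0187). IFNL2, nearly identical to IFNL3, had 1.54, 1.09 and 0.696 FPKM, against 2.04, 1.38 and 1.59 FPKM (adjusted p = 0.0971), and reads of the pair may have been split. IFNB1, the interferon that RNA sensors induce, had 1.41, 1.54 and 0.895 FPKM, against 0.758, 0.956 and 1.11 FPKM (adjusted p = 0.179).

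Of the receptor chains, kinases and STATs, limma called 0 of 9 tested, beside 16.8% of all genes tested. The smallest p-values in this list were those of TYK2, IFNGR2 and STAT3. The kinase TYK2 had 8.98, 9.92 and 8.95 FPKM under the knockdown label, against 10.9, 10.3 and 10.6 FPKM in controls, without overlap (log2 -0.18, limma adjusted p = 0.0572). TYK2 passed in genes averaging 5 FPKM or more, with median scaling, with quantile normalization and with voom (adjusted p = 0.0414, 0.0362, 0.0378 and 0.041). The receptor chain IFNGR2 had 2.77, 2.27 and 2.36 FPKM, against 2.23, 1.85 and 1.88 FPKM in controls, without overlap (log2 0.21, adjusted p = 0.0814). The factor STAT3 passed without knockdown library 3 (log2 0.21, adjusted p = 0.0138), against an adjusted p = 0.116 with it. The kinase JAK1 and the receptor chain IFNAR1 had log2 values of -0.04 and -0.08 (adjusted p = 0.581 and 0.326). IFNAR2 and IL10RB, the partner chains for type I and lambda interferons, stood at no more than 0.238 and 0.0858 FPKM. RefSeq lists a read-through gene over this pair, so their rows may hold only part of the fragments.

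Upstream of interferon, 2 of 13 tested sensors and adaptors rose and 0 fell, a share near the 10.9% higher and 5.91% lower over the table. The count was 0 with no filter, with quantile normalization and without knockdown library 2, control library 2 or control library 3. It was 1 without knockdown library 1 or control library 1. IRF3 stood at 59.6, 65.1 and 58.6 FPKM under the knockdown label, against 54.6, 52.2 and 50.9 FPKM in controls (16.2% higher, log2 0.21, SE 0.06, limma adjusted p = 0.0275). In RefSeq it overlaps BCL2L12. TICAM1 (TRIF), the adaptor of the RNA receptor TLR3, stood at 14.1, 15.3 and 13.5 FPKM, against 13.2, 11.2 and 11.3 FPKM in controls (log2 0.25, SE 0.07, adjusted p = 0.0361). The kinases TBK1 and IKBKE, which phosphorylate IRF3, had log2 values of -0.11 and 0.15 (adjusted p = 0.206 and 0.226). Of 17 tested inhibitors of the pathway, the corepressor gene IRF2BP1 rose, to 50.1, 53.04 and 50.4 FPKM, against 44.6, 43.04 and 40.1 FPKM in controls (adjusted p = 0.011). IRF2, which competes with IRF1 for its sites, fell, to 6.20, 6.87 and 6.78 FPKM, against 7.79, 9.002 and 7.96 FPKM in controls (adjusted p = 0.0188).

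Of 39 tested interferon-stimulated genes outside the set, 5 fell and 0 rose, beside 5.91% lower and 10.9% higher over the table. The count of calls was 1 without knockdown library 2 or any single control library, 2 without knockdown library 1 and 8 without knockdown library 3. The apolipoprotein L gene APOL6 stood at 1.89, 1.84 and 1.99 FPKM under the knockdown label, against 2.90, 3.27 and 3.15 FPKM in controls (38.7% lower, log2 -0.50, SE 0.06, limma adjusted p = 0.00103). This was a larger change than in any of the 7 called genes of the set. DTX3L, the ubiquitin ligase partner of PARP9, fell by 0.17 on the log2 scale, NMI, a STAT-binding protein, by 0.20, TDRD7 by 0.17 and the immunoproteasome subunit gene PSMB10 by 0.40 (adjusted p = 0.0439, 0.0378, 0.0469 and 0.0418). TAP1 and PSMB9 were listed at 0 in every library.

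Of the 10 calls in the pathway lists, APOL6 alone kept its call under every alternative run. Without knockdown library 1, TICAM1, DTX3L, NMI and PSMB10 were lost (adjusted p = 0.0518, 0.076, 0.0676 and 0.0836). Without knockdown library 2, IFNL3, IRF3, TICAM1, DTX3L, NMI, PSMB10 and TDRD7 were lost (0.0562, 0.101, 0.127, 0.114, 0.118, 0.102 and 0.142). Without control library 1, IFNL3, IRF3, DTX3L, NMI, PSMB10 and TDRD7 were lost (0.0523, 0.0504, 0.0757, 0.104, 0.0925 and 0.114). Without control library 2, all but APOL6 were lost, with IFNL3, IRF3, TICAM1, IRF2 and IRF2BP1 at 0.0673, 0.112, 0.145, 0.0925 and 0.0501 and DTX3L, NMI, PSMB10 and TDRD7 at 0.133, 0.0786, 0.143 and 0.17. Without control library 3, the same 9 were lost, with IFNL3, IRF3, TICAM1, IRF2 and IRF2BP1 at 0.0616, 0.119, 0.137, 0.0506 and 0.0585 and DTX3L, NMI, PSMB10 and TDRD7 at 0.184, 0.151, 0.0671 and 0.126. Without knockdown library 3 the count over these lists was 14. With no filter on low genes APOL6 was the sole call left. Quantile normalization ended the calls of IRF3 (0.121), TICAM1 (0.0696) and PSMB10 (0.059), and voom those of IFNL3 (0.119), NMI (0.0551) and TDRD7 (0.0559).

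Of 16 long noncoding RNAs tied to interferon, 10 are rows of the lncRNA table and 3 were abundant enough to test. Limma called 0 of these 3, beside 0.0% of 3092 lncRNA rows, of which 284 had an unadjusted p below 0.05. NEAT1, the scaffold of paraspeckles, had 1.87, 1.87 and 1.905 FPKM under the knockdown label, against 2.50, 2.61 and 2.48 FPKM in controls. The groups were well apart for NEAT1, but it did not pass over the table (log2 -0.41 on the log2(FPKM + 0.1) scale, adjusted p = 0.399). LUCAT1 had 0.941, 1.12 and 0.732 FPKM, against 0.617, 0.674 and 0.604 FPKM, also without overlap (adjusted p = 0.573).

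**Figure D5:**
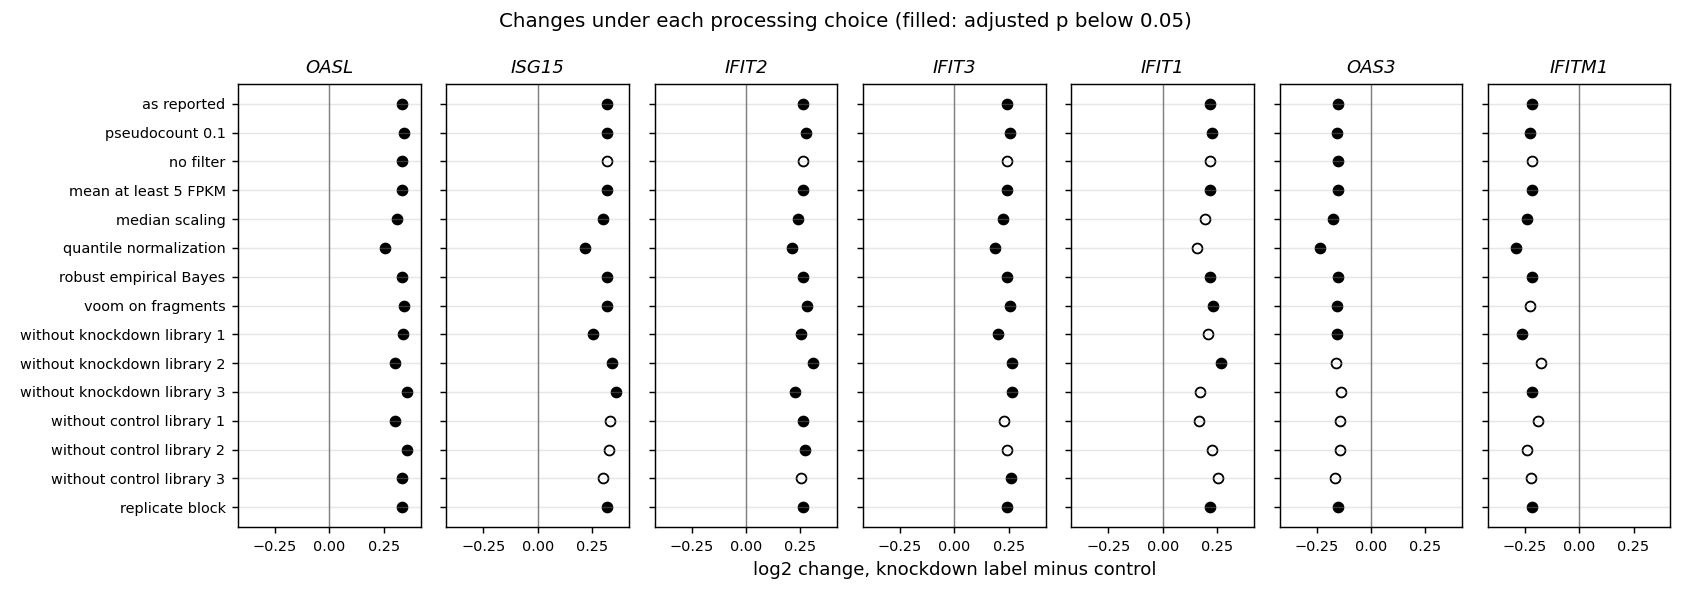
Log2 change of the 7 called interferon-stimulated genes (knockdown label minus control) as reported and under each of 14 alternatives, with filled points for an adjusted p below 0.05. Every point keeps its side of 0; OASL is filled throughout, and most open points come from leaving out a control library.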

How the data were processed

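The authors deposited FPKM values per gene symbol and library in an mRNA and a lncRNA table, per the file headers. The tools listed per the submitters' processing notes are HISAT2, StringTie, Cuffdiff and edgeR, without versions. Which library preparation gave the values, and the build, annotation and strand setting, are in none of the labels or headers used.

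Members and lists were chosen with earlier results of these data known. Rows named were every member, SRSF3, and called or smallest-p genes of each list (up to 4 beyond calls). Library totals were recovered from the steps of the FPKM values (tolerance 0.003 fragments): 25619023, 24903382 and 27300517 fragments in knockdown-labelled libraries 1 to 3 and 24558238, 25560682 and 27351642 in controls, with 14776 of 14803 mRNA rows above 0 in at least 3 libraries on the steps. At this depth 1 FPKM is 24.6 to 27.4 fragments per kilobase.

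limma 3.58.1 (R 4.3.3, lmFit, eBayes with trend, two-sided, Benjamini-Hochberg adjustment over each table, threshold 0.05) was fitted to log2(FPKM + 1) for mRNA rows averaging 0.5 FPKM or more, and to log2(FPKM + 0.1) for lncRNA rows averaging 0.1 FPKM or more. Log2 changes understate those of low genes, and percentages compare mean FPKM, except for SRSF3, where they come from the fit. The recovery of fragments and the fit were tried on simulated data. The counts simulated for the fit had the same spread in both groups, unlike these libraries, so they say nothing about unequal spread. Python 3.11.15 and scipy 1.17.1 gave the permutation test. The fit was repeated with a replicate block, without each library, with limma voom on the recovered fragments, after quantile normalization or median scaling, with robust empirical Bayes, with a smaller pseudocount, at a filter of 5 FPKM and with none. Older symbols were matched through RefSeq synonyms.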

Additional observations from a re-analysis of the deposited data

How the results depend on the processing

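Under the 14 alternatives the 7 called interferon-stimulated genes kept their direction throughout, and 70 of their 98 values kept the call while 28 lost it. With no filter on low genes 2 members changed (OASL and OAS3), against 7 as reported, and the count over the mRNA table was 400, against 1819, with 1 gene of the pathway lists, against 10. Leaving out a library gave between 2 and 8 changed members, between 647 and 2742 genes over the table and between 1 and 14 genes of the pathway lists. The members' median log2 change was 0.01 as reported, 0.0890 in genes averaging 5 FPKM or more, -0.0132 with median scaling and, without single libraries, between 0.0170 and 0.0439. Deviations of same-numbered libraries correlated at 0.08, 0.04 and 0.28, and those of libraries with other numbers at -0.21 to 0.15. These values do not settle whether the replicate numbers pair the libraries. With a replicate block 10 members changed, 7 higher and 3 lower, and 2323 genes over the table. In that fit IFI27, IFIH1 and PARP14 were called besides the 7, and not every library correlated best with its own number. The receptor and kinase list gave 0 calls as reported and 1 under 6 of the alternatives, one of them the block (IFNGR2, adjusted p = 0.0332). SRSF3 and the lncRNA list stayed uncalled in every fit run. For the counts that moved, the cause was not tested.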
